A study of Mus musculus with 2 samples.

Results

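The genes described here are 8 mouse genes whose human counterparts are tied to inherited Parkinson disease or parkinsonism: Pink1, Park7, Uchl1, Fbxo7, Vps35, Synj1, Lrrk2 and Atp13a2. The selection rule takes them by name and uses no measured value, though it was made with earlier results of these data known. All 8 were found among the 43346 gene identifiers of the gene tables. RNA came from midbrain tissue of B6NCrl mice, taken on embryonic day 10.5; the embryos were healthy, and the labels give no allele or agent. There is 1 group with 2 libraries: replicate 1 is a pool of 69 embryos and replicate 2 a pool of 51 embryos, male and female together in each. With 1 group no treatment or stage is compared, so levels are given within each library and the only contrast is replicate 1 against replicate 2. Whether the pools came from separate dissections is not given beyond the name biological replicate, so the spread between them may be technical.

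Parkinson disease destroys dopamine neurons of the adult midbrain, and the products of these genes serve a few shared tasks of cell upkeep. PINK1 marks damaged mitochondria for removal and DJ-1, the product of Park7, guards against oxidative stress. VPS35, synaptojanin 1 and LRRK2 act on endosomes and vesicles, ATP13A2 on lysosomes, and UCHL1 and FBXO7 on ubiquitin and protein turnover. At the stage sampled here the midbrain is mostly dividing neuroepithelium, long before dopamine neurons release transmitter in their targets.

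The gene rows held 45531621 expected counts in replicate 1 and 50477634 in replicate 2, where an expected count is an estimated number of reads. Of 8 midbrain identity genes, 7 reached at least 1 TPM in both libraries. TPM is a relative level corrected for transcript length, scaled to a fixed total in each library. Otx2, a homeobox gene of forebrain and midbrain, had 138.04 and 122.72 TPM in replicates 1 and 2, and En2 was under the minimum at 0.92 and 0.71 TPM. All 7 early genes of the dopamine lineage were detected, among them Th, which encodes the rate-limiting enzyme of dopamine synthesis, at 11.93 and 6.68 TPM. Of 5 genes of mature dopamine neurons 1 was detected, the vesicular transporter Slc18a2 at 12.71 and 10.37 TPM. The dopamine transporter Slc6a3 had 0.09 and 0.08 TPM and the homeobox gene Pitx3 had 0.14 and 0.36 TPM. Genes of red blood cells summed to 16697 and 18593 TPM over 8 markers, so the libraries hold blood as well as neural tissue.

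For 3 members the annotated transcripts differ at places that bear on what their levels count, and the bases there are shown in the 5′ to 3′ direction from GENCODE M21 transcripts on GRCm38. In Uchl1 the coding transcript Uchl1-201 joins exon 2 to exon 3, whereas Uchl1-202 starts inside the intron before exon 3. The capitals mark the first 15 bases of exon 3, which both carry. The stretch of Uchl1-201 runs from its start codon and lies within chr5:66676290-66676958, plus strand; that of Uchl1-202 lies at chr5:66676892-66676958.
Uchl1-201: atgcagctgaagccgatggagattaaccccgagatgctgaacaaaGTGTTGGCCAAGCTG
Uchl1-202: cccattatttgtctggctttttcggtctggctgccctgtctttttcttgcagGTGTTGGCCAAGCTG

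In Atp13a2 the transcripts Atp13a2-201 and Atp13a2-203 enter exon 28 at different acceptors. The capitals mark the 74 bases that only the first of these carries. The flanking 10 bases on each side are shared, within chr4:141006494-141006762, plus strand.
Atp13a2-201: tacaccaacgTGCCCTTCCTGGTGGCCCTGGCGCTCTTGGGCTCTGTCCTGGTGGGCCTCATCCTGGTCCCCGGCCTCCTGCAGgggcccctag
Atp13a2-203: tacaccaacggggcccctag

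In Synj1 the transcript Synj1-210 holds a small exon of 24 bases, in capitals, that contains its stop codon, and Synj1-203 skips it and reads on into a longer coding end. Both stretches open with the last 15 bases of the exon before, and lie within chr16:90939020-90944369, minus strand.
Synj1-210: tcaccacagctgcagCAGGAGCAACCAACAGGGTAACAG
Synj1-203: tcaccacagctgcaggtaaaaataaatggc

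All 8 genes were detected, meaning at least 1 TPM in both libraries, against 58.1% of 21474 protein-coding genes. Their mean levels ran from 1.65 TPM for Lrrk2 to 399.9 TPM for Park7, and the median of the 8 was 36.3 TPM, against 20.7 TPM over the 12477 detected protein-coding genes. The order by mean was Park7, Uchl1, Vps35, Atp13a2, Pink1, Fbxo7, Synj1 and Lrrk2, and each library alone gave the same order. The deposited credible intervals, which show how precisely a gene was estimated in a library, separated every pair of neighbours in both libraries except Fbxo7 and Synj1. Those 2 genes were apart in replicate 2 but not in replicate 1, where they differed by a ratio of 1.02.

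**Figure D1:**
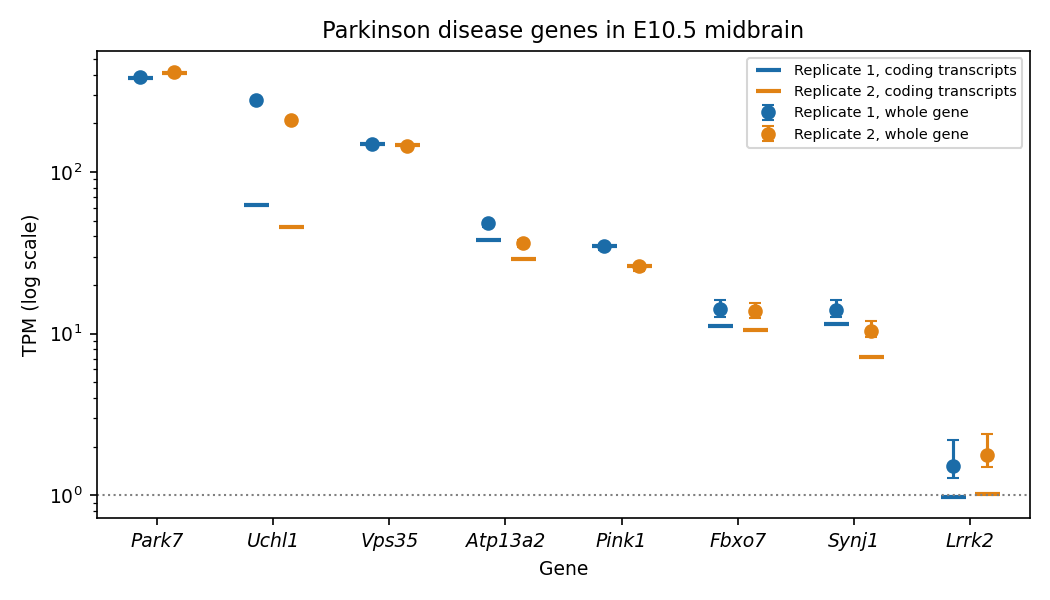
TPM on a log scale of the 8 genes in replicate 1 (blue, left) and replicate 2 (orange, right). Circles are whole-gene levels with deposited credible intervals, horizontal dashes are the TPM of annotated coding transcripts alone, and the dotted line is 1 TPM; Uchl1 shows the widest gap between circle and dash, and Lrrk2 lies nearest to the dotted line.

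Park7 was the highest gene of the set. It had 385.84 TPM in replicate 1 and 413.97 TPM in replicate 2, a mean of 399.9 ± 19.9 TPM (SD, n = 2), which placed it at rank 324 of the protein-coding genes. Its gene (ENSMUSG00000028964) lies at chr4:150897133-150914437 on the minus strand in M21. The 2 credible intervals did not overlap, and replicate 2 was the higher, at a replicate 1 to replicate 2 ratio of 0.883 in scaled counts (95% exact binomial interval 0.859 to 0.908). Park7-201, a coding transcript with 7 exons, held 88.8% and 90.7% of the TPM of the gene in replicates 1 and 2. Nearly all of Park7 was on coding transcripts, 99.3% and 99.4%.

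Pink1, the kinase that accumulates on damaged mitochondria, was more than 10 times lower than Park7 in both libraries. It had 34.90 TPM in replicate 1 and 26.05 TPM in replicate 2, a mean of 30.5 ± 6.3 TPM (SD, n = 2), higher than 77.3% of protein-coding genes. The gene (ENSMUSG00000028756) lies at chr4:138313409-138326307, minus strand. The intervals of the libraries did not overlap, and replicate 1 was the higher by a scaled-count ratio of 1.29 (1.22 to 1.37). All of its TPM was on coding transcripts, and the full-length Pink1-201 carried 95.5% and 91.4% of it.

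Uchl1, a ubiquitin hydrolase known as an abundant protein of neurons, was the next highest gene. It had 278.00 TPM in replicate 1 and 209.65 TPM in replicate 2, with a mean of 244 ± 48 TPM (SD, n = 2). The gene (ENSMUSG00000029223) lies at chr5:66676091-66687234, plus strand. Replicate 1 was higher, the intervals did not overlap, and the scaled-count ratio was 1.26 (1.22 to 1.30). Its antisense neighbour Uchl1os, which overlaps 408 bases on the other strand, was listed at 0.19 and 0.07 TPM. Whether strand was kept in the libraries is not known, so reads of overlapping genes on opposite strands cannot be told apart with certainty.

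Most of the Uchl1 level was assigned to the transcript that lacks its coding start. Uchl1-202, annotated as a retained intron, took 209.84 and 159.06 TPM in replicates 1 and 2, or 75.5% and 75.9% of the gene. The coding Uchl1-201 took 62.15 and 45.80 TPM, or 22.4% and 21.8%. These shares differed between the libraries by under 1 percentage point. Under 50% of TPM lay on coding transcripts in both libraries for 7.60% of the 12477 detected protein-coding genes, and for 10.1% of those with at least 2 transcripts. Only 2.47% of detected genes had a smaller coding share than Uchl1. In the sequences shown for Uchl1, the transcripts differ before the capitals: Uchl1-202 opens with 52 intron bases and has no start codon of the coding form, whereas Uchl1-201 has 244 bases in exons 1 and 2, 45 of them coding. In M21 the transcripts have 928 bases of exons 3 to 9 in common, and a read inside them fits both, so the split rests on reads at the different ends and was not tested further. The table gives Uchl1-201 a length of 1167 nt, against 1177 nt in M21.

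Fbxo7 encodes the F-box subunit that brings substrates to an SCF ubiquitin ligase. It was nearly equal in the libraries, with 14.24 TPM in replicate 1 and 13.75 TPM in replicate 2, a mean of 14.0 ± 0.35 TPM (SD, n = 2). The gene (ENSMUSG00000001786) lies at chr10:86021972-86051873, plus strand. The intervals overlapped, and the scaled-count ratio of 0.997 had an interval of 0.903 to 1.10, which includes 1. Its transcripts were less steady than its total. Fbxo7-202 held 55.7% in replicate 1 and 42.0% in replicate 2, Fbxo7-203 held 13.9% and 25.9%, and the credible intervals of each overlapped between the libraries. The transcript with the longest coding sequence, 1569 nt, held 8.78% and 9.09%. Transcripts annotated for nonsense-mediated decay held 17.3% and 19.6%, and no transcript of the other members is annotated as this type. The 2 transcripts moved in opposite directions, Fbxo7-207 at 11.8% and 6.70% and Fbxo7-201 at 5.51% and 12.8%. They rest on few expected counts, 14.1 and 8.86 for the former and 32.2 and 83.0 for the latter. The credible intervals of each overlapped between the libraries. The antisense gene A230060F14Rik overlaps 358 bases of Fbxo7 and had 2.61 and 2.21 TPM.

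**Figure D2:**
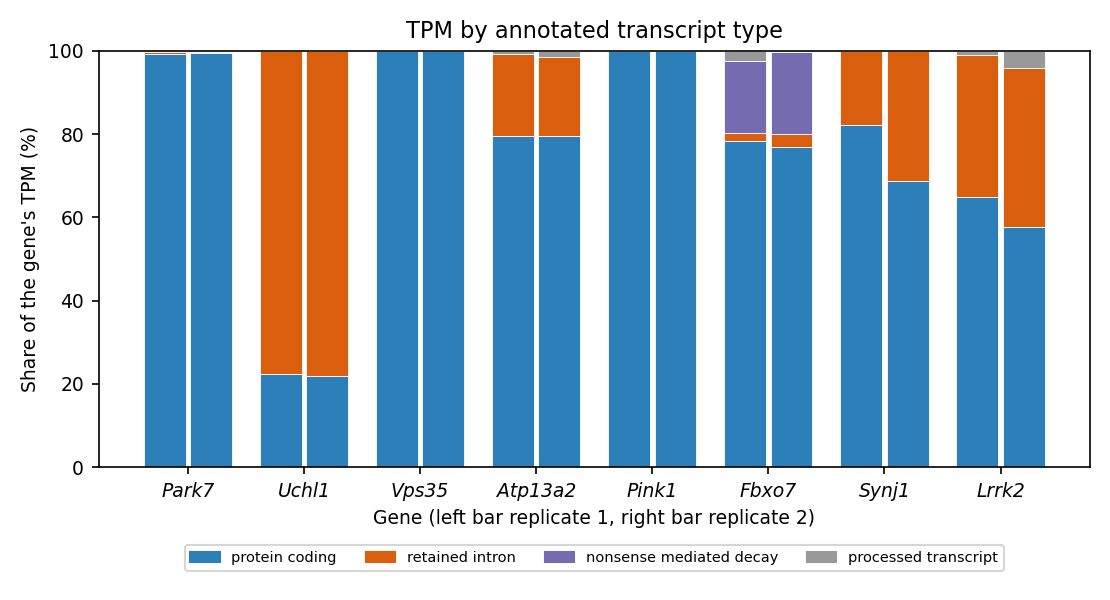
Share of the TPM of each gene, in percent, on transcripts of each annotated type in replicate 1 (left bar) and replicate 2 (right bar). Coding transcripts hold 22.4% and 21.8% of Uchl1 and at least 57.6% of every other gene shown in either library.

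Among the endosomal members, Vps35, the scaffold of the retromer that returns cargo from endosomes, was the highest. It had 148.92 TPM in replicate 1 and 145.86 TPM in replicate 2, a mean of 147 ± 2.2 TPM (SD, n = 2), higher than 94.8% of protein-coding genes. The gene (ENSMUSG00000031696) lies at chr8:85260392-85299802, minus strand. The intervals overlapped and the scaled-count ratio was 0.969 (0.947 to 0.992), whereas the ratio of the deposited TPM values was above 1. Orc6, a gene of DNA replication, overlaps 171 bases of Vps35 on the opposite strand and had 89.91 and 98.65 TPM.

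Vps35 was matched in level by its core partners only in part. Vps29 had 182.08 and 182.76 TPM in replicates 1 and 2, so Vps35 stood at 0.818 and 0.798 of it. Vps26a had 66.01 and 67.80 TPM and its relative Vps26b had 20.00 and 19.01 TPM. The order Vps29, Vps35, Vps26a, Vps26b was the same in both libraries, with credible intervals apart at each step. Vps26a was 3.30 and 3.57 times as high as Vps26b.

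Synj1 encodes synaptojanin 1, a lipid phosphatase that strips the clathrin coat from new synaptic vesicles. It had 13.97 TPM in replicate 1 and 10.36 TPM in replicate 2, a mean of 12.2 ± 2.6 TPM (SD, n = 2). The gene (ENSMUSG00000022973) lies at chr16:90936092-91011308, minus strand. Replicate 1 was the higher, with intervals apart and a scaled-count ratio of 1.27 (1.18 to 1.37). On the opposite strand it overlaps 4930404I05Rik, which had 1.71 and 1.65 TPM, and Gm15965, which had 0.18 and 0.16 TPM. Synaptojanin 1 has a shorter form known from adult nerve terminals and a longer form found more widely. The 4 transcripts with the small exon that ends the shorter form, shown above in capitals, held 41.6% and 38.5% of the TPM in replicates 1 and 2. Synj1-203, which reads on into the longer end, held 20.4% and 19.5%. The remaining 38.0% and 42.1% was on 5 other transcripts that lack the small exon. Whether any of these reaches the longer end was not tested. A model of 354 nt among them held 20.2% and 10.8% from only 21.2 and 9.58 expected counts. Most of the short-end share came from Synj1-208, a partial model with 566 coding nt, at 27.9% and 27.6%. Between the near-complete models, Synj1-210 (3927 coding nt) had 1.79 and 1.02 TPM and Synj1-203 (4821 coding nt) had 2.85 and 2.02 TPM. Their credible intervals overlapped in both libraries, so which of these 2 was higher could not be resolved at this depth.

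Lrrk2, a large kinase that phosphorylates Rab proteins, was the lowest member. It had 1.52 TPM in replicate 1 and 1.77 TPM in replicate 2, a mean of 1.65 ± 0.18 TPM (SD, n = 2), higher than 44.0% of protein-coding genes. These values rest on 249 and 305 expected counts, where 3 counts would correspond to 0.0183 and 0.0174 TPM. The gene (ENSMUSG00000036273) lies at chr15:91673175-91816120, plus strand, and spans 142946 nt. The intervals overlapped and the scaled-count ratio was 0.887 (0.747 to 1.05), so a difference between the libraries was not detectable at this depth. The coding Lrrk2-201, with 51 exons, had 0.98 and 1.02 TPM and nearly all of the reads, 236 and 279.7 expected counts. A retained-intron model of 812 nt took 33.4% and 37.8% of the TPM from only 10.6 and 16.0 expected counts. Counted on its coding transcript, Lrrk2 was therefore under 1 TPM in replicate 1.

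Atp13a2, a lysosomal P5-type ATPase that exports polyamines, was intermediate. It had 48.03 TPM in replicate 1 and 36.33 TPM in replicate 2, a mean of 42.2 ± 8.3 TPM (SD, n = 2). The gene (ENSMUSG00000036622) lies at chr4:140986873-141007330, plus strand, so 3 of the 8 members are on chromosome 4. Replicate 1 was the higher, with intervals apart and a scaled-count ratio of 1.26 (1.21 to 1.31). Atp13a2-201, which carries the 74 bases shown in capitals, held 53.8% in each library, and Atp13a2-203, which skips them, held 24.7% ± 0.34 (SD, n = 2). Their coding sequences are 3507 and 3345 nt long. The intervals of the 2 transcripts did not overlap in either library. Retained-intron transcripts held 19.6% and 19.1%.

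The libraries differed by less than 1.5-fold for each of the 8 genes. None of the 8 passed that fold in scaled counts, against 9.77% of the 14768 genes whose mean reached 1 TPM. Of the 12477 detected protein-coding genes, 638 passed it with replicate 1 higher and 157 with replicate 2 higher. At a lower limit, a ratio of 5 to 4, 4 of 8 passed, against 23.5% of the 14768 genes. At 2-fold none passed, against 3.25% of the same genes. Credible intervals were apart for 5 of 8 genes, against 35.9% of all tested genes and 42.4% of genes averaging 10 to 500 TPM. Pink1, Uchl1, Atp13a2 and Synj1 were apart with replicate 1 higher, as were 25.4% of the tested genes, and Park7 was apart with replicate 2 higher, as were 10.5%. With a single library on each side no test of biological spread exists. The exact binomial intervals cover counting error of reads only, and the credible intervals show the estimation error of each library. PCR copies are not independent molecules, so both kinds may be too narrow.

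Markers of neurons moved between the libraries too. All 10 genes of newborn and differentiating neurons were higher in replicate 1 in scaled counts, with intervals apart for all 10 and 5 of them past 1.5-fold, and none was at 0. They summed to 1421 TPM in replicate 1 and 906 TPM in replicate 2, with a median log2 ratio of 0.62. The 4 members higher in replicate 1 had log2 ratios of 0.33 to 0.37. Of the 7 early genes of the dopamine lineage, 4 were higher in replicate 1 and 3 in replicate 2 in scaled counts. Nr4a2 and Th were past 1.5-fold, both higher in replicate 1. Genes of macrophages and microglia were higher in replicate 1 in 7 of 8 cases and summed to 95.1 and 62.3 TPM, and progenitor genes summed to 2779.8 and 2298 TPM with a median log2 ratio of 0.14. Mesenchyme and neural crest genes summed to 812 and 568 TPM, most of it collagen genes, but 4 of these 9 genes were higher in replicate 2 in scaled counts. Among them was the crest gene Sox10, which had 0.46 and 2.15 TPM. Endothelial genes summed to 165 and 178 TPM. In scaled counts 3 of these 7 genes were higher in replicate 1 and 4 in replicate 2, with a median log2 ratio of -0.03. Red blood cell genes were higher in replicate 2 in 8 of 8 cases in scaled counts. The part of these markers in the ratios of the members was not tested. In bulk tissue fewer cells of a type and less RNA per cell cannot be told apart.

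**Figure D3:**
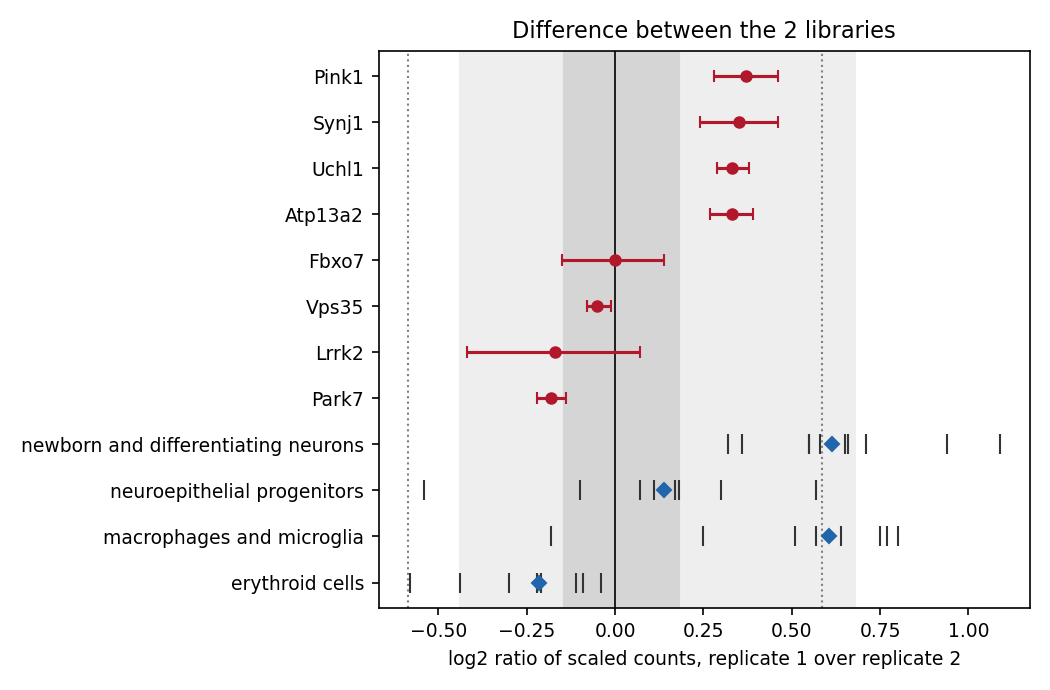
log2 ratio of scaled counts, replicate 1 over replicate 2, of the 8 genes (red points with 95% exact binomial intervals) and of single genes in 4 marker lists (ticks, with the median as a diamond). Dark and light grey bands hold the middle 50% and 90% of 14768 genes, and dotted lines mark 1.5-fold; the members lie between -0.18 and 0.37, inside the dotted lines, and the neuron markers have a median of 0.62.

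Relatives of the members differed widely in level. Lrrk1, the paralog of Lrrk2, had 5.12 and 3.89 TPM, so Lrrk2 stood at 0.297 of it in replicate 1 and 0.455 in replicate 2. Uchl1 was 2.22 and 1.54 times as high as Uchl3, which had 125.00 and 136.50 TPM, and Uchl5 had 86.54 and 98.96 TPM. Synj1 was 12.8 and 14.0 times as high as Synj2, which was near the detection minimum at 1.09 and 0.74 TPM. Among the P5-type ATPases, Atp13a2 and the endoplasmic reticulum enzyme Atp13a1 were alike in replicate 1, at 48.03 and 49.15 TPM with overlapping intervals, but not in replicate 2, at 36.33 and 48.55 TPM. Atp13a3 was lower at 5.97 and 6.59 TPM, and Atp13a4 and Atp13a5 were under 1 TPM in both libraries. Of the auxilins, which help uncoat clathrin vesicles beside synaptojanin, Gak had 53.09 and 49.44 TPM and the neuronal Dnajc6 had 2.54 and 0.99 TPM.

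Each member was also set beside a list of genes of its own pathway. The 8 lists hold 147 different genes, of which 143 were detected, against 58.1% of 21474 protein-coding genes. The lists were chosen with earlier results of these data known, so these counts are descriptive. Of the list genes, 6 were past 1.5-fold between the libraries, all higher in replicate 1. Over all tested genes, 6.72% were past that fold in the same direction. No list gene was past that fold in the other direction, against 3.05%. Of the 12477 detected protein-coding genes, a closer background, 638 were past it with replicate 1 higher and 157 with replicate 2 higher.

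For LRRK2, all 18 relatives, Rab substrates and effectors were detected (median 21.8 TPM). Lrrk2 itself was lower than all 18 in replicate 1 and lower than 17 of them in replicate 2. The substrates Rab8a and Rab10 led the list at 116 ± 6.5 and 71.8 ± 1.5 TPM, followed by Spag9, a motor adaptor that binds phosphorylated Rabs, at 60.6 ± 12 TPM (SD, n = 2 each). Ppm1h, the phosphatase that reverses the modification, had 3.65 and 2.82 TPM. Past 1.5-fold were Rab3a, a synaptic vesicle Rab, at 34.42 and 14.64 TPM, and Rab3c at 4.57 and 1.73 TPM, both higher in replicate 1.

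In the mitochondrial quality control list all 30 genes were detected (median 66.1 TPM) and none was past 1.5-fold. Pink1 was lower than 22 of them in replicate 1 and 24 in replicate 2. Chchd2, itself a gene linked to Parkinson disease in people, was highest at 883 ± 25 TPM, then the mitophagy receptor Bnip3l at 409 ± 7.0 TPM and the inner membrane receptor Phb2 at 370.4 ± 44 TPM (SD, n = 2 each). The autophagy receptor Optn was lowest at 3.71 and 2.85 TPM, and the mitochondrial deubiquitinase Usp30 had 11.92 and 10.65 TPM. In the oxidative stress list all 20 genes were detected, their median was 135 TPM, and none passed 1.5-fold. Park7 was higher than 15 of them in replicate 1 and 14 in replicate 2. The peroxide-reducing enzymes Prdx1 and Prdx2 led at 1084 ± 125 and 1052 ± 41 TPM, with the superoxide dismutase Sod1 at 927 ± 24 TPM (SD, n = 2 each). Nqo1 and Gclc, known targets of the stress factor NRF2, were lowest at 5.46 ± 1.0 and 13.6 ± 0.91 TPM.

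All 16 genes of the retromer list were detected (median 54.2 TPM) and none was past 1.5-fold, and Vps35 was above 13 of them in replicate 1 and 12 in replicate 2. Snx3 and Rab7, which recruit retromer to endosomes, had 203 ± 4.0 and 186 ± 5.5 TPM. Tbc1d5, which inactivates Rab7, was lowest at 6.85 ± 0.62 TPM, and Washc1 of the actin-nucleating WASH complex had 18.7 ± 1.2 TPM (SD, n = 2 each). In the clathrin list 26 of 28 genes were detected (median 40.5 TPM), and Synj1 was lower than 18 of them in replicate 1 and 19 in replicate 2. The uncoating chaperone Hspa8 led at 2972 ± 451 TPM, and the adaptor subunits Ap2m1 and Ap2s1 had 468 ± 47 and 238 ± 0.74 TPM (SD, n = 2 each). Past 1.5-fold, all higher in replicate 1, were 4 genes known for neuronal expression. Snap91 had 12.02 and 5.52 TPM, Sh3gl2 had 4.71 and 2.51 TPM and Dnm3 had 4.07 and 1.92 TPM, beside Dnajc6. Among their relatives, Sh3gl1 and Dnm2 had log2 ratios of -0.09 and -0.03. Sh3gl3 and Dnm1 had 0.54 and 0.47, short of the fold. These relatives were picked after their values were seen, and why the genes differ was not tested.

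All 12 genes of the ubiquitin list were detected, with the highest median of the 8 lists, 233 TPM, and none past 1.5-fold. The ubiquitin genes Ubb and Rps27a were among the highest at 2915 ± 158 and 814 ± 96 TPM, and Uchl5 and Bap1 were lowest at 92.8 ± 8.8 and 121 ± 8.5 TPM (SD, n = 2 each). Uchl1 was above 8 of the 12 in replicate 1 and 5 in replicate 2. All 6 genes of the SCF list were detected (median 102 TPM) and none was past 1.5-fold. Fbxo7 was lower than its core partners Skp1a at 788 ± 12 TPM, Rbx1 at 288 ± 1.7 TPM and Cul1 at 161 ± 1.9 TPM (SD, n = 2 each). The lowest of that list, the cell cycle kinase Cdk6, which is known to bind FBXO7, had 13.90 and 19.18 TPM, and Birc2 had 30.09 and 26.00 TPM. In the lysosome and polyamine list 16 of 18 genes were detected (median 57.8 TPM) and none was past 1.5-fold. Odc1, which makes the polyamine putrescine, led at 202 ± 19 TPM, with the lysosomal membrane protein Lamp1 at 185 ± 0.33 TPM and the protease Ctsd at 136 ± 16 TPM (SD, n = 2 each). Atp13a2 was lower than 12 of the 18 in each library.

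**Figure D4:**
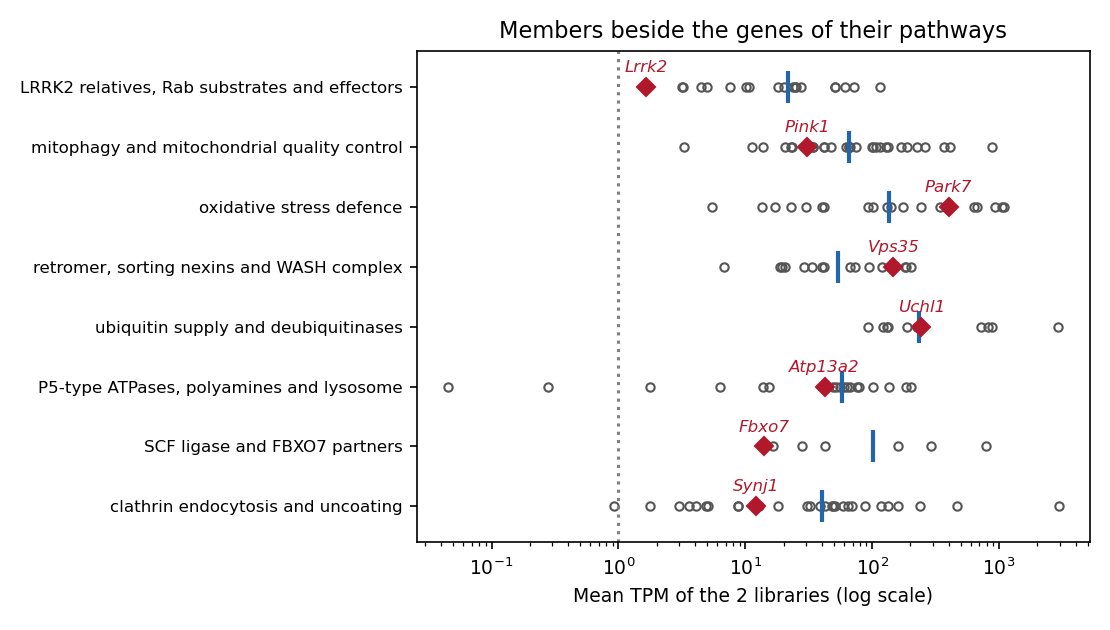
Mean TPM of 2 libraries on a log scale of the genes in 8 pathway lists (open circles), the list median (blue tick) and the member belonging to the list (red diamond). The dotted line is 1 TPM. By mean, Park7, Vps35 and Uchl1 lie above their list medians, Uchl1 at 244 against 233 TPM. In replicate 2 alone Uchl1 was under its list median, at 209.65 against 227 TPM. Lrrk2 lies lowest in its row at 1.65 TPM, and Fbxo7 is also left of all circles in its row at 14.0 TPM. In replicate 1 alone Fbxo7 was above Cdk6, at 14.24 against 13.90 TPM.

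Promoter letters were compared as a feature apart from level. Windows of the 250 bases before the start that RefSeq gives (GRCm38.p6) were found for 7 of 8 members, 9 windows in all. RefSeq and M21 place some starts differently, and 7 of the 9 windows reach into the M21 gene. The Park7 window lies inside it with all 250 bases, 1 Synj1 window with 213 and 1 Fbxo7 window with 182. The Lrrk2 window reaches in by 49 bases, that of Atp13a2 by 48, that of Uchl1 by 30 and that of Pink1 by 11. The 9 windows held from 7 CG pairs in Uchl1 to 31 in 1 of the 2 overlapping windows of Fbxo7. Over 21263 windows of protein-coding genes the median was 10.0, with quartiles of 3 and 19.0. Uchl1 had fewer than any other member matched. Pink1 had 13 CG pairs, Park7, the highest member, had 16, Atp13a2 had 21 and Lrrk2, the lowest member, had 22. The windows of Synj1 had 24 and 30 and those of Fbxo7 had 25 and 31. Whether CG pairs go with level was not tested. The windows of 2 members are shown with each CG in capitals, Lrrk2 at chr15:91672974-91673223 and Uchl1 at chr5:66675871-66676120, plus strand in each case.
Lrrk2: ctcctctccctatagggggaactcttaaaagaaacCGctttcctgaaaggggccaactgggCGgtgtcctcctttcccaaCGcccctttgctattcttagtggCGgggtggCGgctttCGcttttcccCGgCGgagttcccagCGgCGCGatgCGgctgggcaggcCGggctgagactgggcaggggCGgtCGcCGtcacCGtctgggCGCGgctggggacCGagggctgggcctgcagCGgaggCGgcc
Uchl1: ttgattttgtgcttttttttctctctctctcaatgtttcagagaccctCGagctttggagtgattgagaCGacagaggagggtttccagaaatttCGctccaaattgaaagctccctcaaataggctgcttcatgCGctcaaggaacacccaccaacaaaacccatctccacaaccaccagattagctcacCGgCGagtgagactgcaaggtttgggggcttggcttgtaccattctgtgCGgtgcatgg

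The letters TATAAA, searched on both strands, were in 0 of the 9 member windows and in 11.6% of all windows. The letters TGCGCA, which read the same on both strands, were in 2 of 9 and in 8.06% of all windows. Those 2 windows were of Pink1 and of Park7, the latter wholly inside the M21 gene. Such matches describe the letters of these windows only.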

How the data were processed

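The labels describe total RNA-seq on 10 ng of RNA above 200 nt, extracted with the mirVana kit, with spike-ins; they also link the manual of a SMARTer Ultra Low kit, so capture and strand are taken as unknown. Per the file headers and accompanying notes, values are on mm10 with GENCODE M4, with aligner and quantifier not given in the sources used here. The deposited expected counts share reads among transcripts. The deposited TPM values are scaled by effective length over all rows, spike-ins and tRNAs included; the deposited FPKM values served as an alternative. The deposited credible bounds are a signal in TPM units of unstated level. The deposited isoform percent is the share of each transcript in its gene.

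Names, types and positions came from GENCODE M21 on GRCm38, matched on 42462 of 43346 identifiers. The 26345 other rows, spike-ins and tRNAs, held 3.39% and 3.28% of counts and stayed out of library sizes. For ratios, rounded expected counts with 0.5 added were scaled by TMM (edgeR 4.0.16; DESeq2 1.42.0 size factors as an alternative; R 4.3.3, Python 3.11.15, scipy 1.17.1). The ratio step was run on simulated counts that vary by counting error alone, which checks its arithmetic and not the spread between libraries. No p-values were computed. Members and lists were chosen with earlier results of these data known. Named were all members, their paralogs, core retromer partners, overlapping genes (those listed at 0 TPM were left out), and of each list the 3 highest, the 2 lowest and those past 1.5-fold. Some items named by this rule are not reported here, though the summary of their list covers them. No likeness of pattern was measured with 2 libraries. Alternatives were other minimums, scalings, folds and isoform estimates, each library alone and, added after seeing the data, coding transcripts alone.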

Additional observations from a re-analysis of the deposited data

How the results depend on the processing

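The count of 8 detected members stayed 8 at 0.5 TPM, with TPM rescaled over gene rows and in each library alone, and was 7 at 5 TPM and on coding transcripts alone, Lrrk2 being the gene lost both times. The coding-transcript setting was chosen after seeing the data; it also put Vps35 above Uchl1, so that 6 of 7 neighbouring pairs kept the order. No member passed 1.5-fold under TPM ratios, FPKM ratios, DESeq2 size factors, total counts, no added count, no filter or a 2-fold limit; 4 passed at a ratio of 5 to 4. Intervals were apart for 5 members with FPKM bounds and for 6, Vps35 added, with bounds on the TMM scale. The library ratio of 4 members moved past its counting interval under deposited TPM (Uchl1 to a log2 ratio of 0.41, Atp13a2 to 0.40, Park7 to -0.10, Vps35 to 0.03, with its sign turned), which shifts the median of all genes by 0.071; no other scaling moved any of the 8. Posterior mean isoform percents left 7 of 8 members above 50% coding, but moved the coding share of Lrrk2 to 53.7%, Fbxo7 to 73.9% and Atp13a2 to 78.1%, beyond the spread between libraries. Levels moved beyond that spread for Park7 (433 TPM), Vps35 (159.6 TPM) and Fbxo7 (15.2 TPM) with TPM over gene rows alone. With posterior means that of Vps35 moved (145 TPM). Coding transcripts alone moved the mean levels of 5 members. Uchl1 fell to 54.0 TPM, Atp13a2 to 33.5 TPM, Fbxo7 to 10.9 TPM, Synj1 to 9.31 TPM and Lrrk2 to 1.00 TPM. With 2 libraries of 1 group, no statement about stage, treatment or biological variance can be made. No paired analysis was possible because there is only 1 group.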

Other observations

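Counted on annotated coding transcripts alone, a view chosen after the values were seen, some paralogs changed places. Uchl3 had 125 and 136 TPM in replicates 1 and 2 and Uchl1 had 62.1 and 45.8 TPM, so Uchl1 stood at 0.497 and 0.336 of Uchl3, where whole-gene TPM put it above. The retromer genes changed places too: Vps35 was 1.15 times as high as Vps29 in each library, where 71.0% and 69.7% of Vps29 lay on coding transcripts. Lrrk1 kept its place above Lrrk2, at 2.15 and 1.85 TPM against 0.980 and 1.02 TPM for Lrrk2. Synj1 was 23.0 and 34.0 times as high as Synj2 on this scale. Coding transcripts of Synj2 were under the minimum of 1 TPM in both libraries, so these ratios divide by a low value.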
